A study of Mus musculus with 7 samples.

Results

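Protein phosphatase 1 (PP1) is a serine/threonine phosphatase made of a catalytic subunit and 1 of many regulatory subunits. The table of read counts held 29 genes whose symbols begin with *Ppp1c* or *Ppp1r*, out of 14819 rows, when *Ppp1r15a* and *Ppp1r15b* are left aside. They comprised 4 catalytic genes, 4 glycogen-targeting genes of the *Ppp1r3* series and 21 other regulatory genes. All 29 passed the filter on low counts and were tested. RNA came from primary hepatocytes of male mice, isolated by collagenase perfusion and kept overnight in William's E medium with serum, with no further treatment. WT mice (n = 4 libraries) were compared with WDR6-WKO mice (n = 3 libraries), in which CRISPR–Cas9 had removed exon 2 of *Wdr6* in the whole body. The deletion was therefore not limited to hepatocytes, and the study's methods name 7-week-old C57BL/6J mice as the default, with no separate age for these groups. The study investigated PPP1CB as a partner of WDR6, and the comparison described here asks whether the RNA of the PP1 genes differed between the genotypes.

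The catalytic subunit of PP1 has little substrate choice of its own. Regulatory subunits, most of which bind it through a short RVxF-type motif, bring it to glycogen particles, myosin, chromatin or the cytoskeleton, or hold it inactive. In liver, PP1 bound to a glycogen-targeting subunit activates glycogen synthase and inactivates glycogen phosphorylase, and PP1 has also been linked to the insulin response of lipogenic genes through DNA-PK and USF1.

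The 3 protein-coding catalytic genes are alike over most of their length and are known to differ most at their ends, so the last stretch of each coding sequence is shown. Between *Ppp1cb* and *Ppp1ca*, 74.8% of 981 aligned coding bases were identical. Between *Ppp1ca* and the form of *Ppp1cc* with 323 codons the figure was 79.1% of 971 aligned bases. Each sequence below, from the GENCODE transcripts on GRCm38, runs 5′ to 3′ from 9 codons before a shared threonine codon, given in capitals, to the stop codon.
*Ppp1cb*, 327 codons: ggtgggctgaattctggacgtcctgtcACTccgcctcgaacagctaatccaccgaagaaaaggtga
*Ppp1ca*, 330 codons: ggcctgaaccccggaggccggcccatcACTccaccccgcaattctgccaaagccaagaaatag
*Ppp1cc*, 323 codons: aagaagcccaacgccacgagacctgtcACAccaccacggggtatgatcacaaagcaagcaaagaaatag
*Ppp1cc*, 337 codons: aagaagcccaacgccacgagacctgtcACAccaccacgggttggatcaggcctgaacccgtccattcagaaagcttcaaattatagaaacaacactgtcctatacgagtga
The codon in capitals is number 316 in *Ppp1cb* (chr5:32491020-32491022, plus strand), number 320 in *Ppp1ca* (chr19:4195057-4195059, plus strand) and number 311 in *Ppp1cc* (chr5:122174103-122174105, plus strand). It was located as the only in-frame match to codons for threonine, proline, proline and arginine, so the codons right after it follow from the search. The threonine at this codon of *Ppp1cb* is the residue whose phosphorylation the study followed. The forms of *Ppp1cc* share this codon and differ after it. Counts per gene do not separate these forms and say nothing about phosphorylation.

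The libraries held between 17816913 and 23668940 counted reads, and the common biological coefficient of variation was 7.40%. The targeted gene *Wdr6* stood at 44.0 ± 4.03 CPM (reads scaled to a common library total; mean ± s.d., n = 4) in WT and at 2.38 ± 0.179 CPM (n = 3) in WDR6-WKO, a log2 fold change of −4.20. WDR6-WKO replicate 3 stood apart from the other 2 libraries of its genotype. Chi-square per gene was 14.3 and 15.9 in its pairs with them, against 3.798 to 8.23 in all other pairs of the same genotype. Its deviation from the WT mean also ran the other way with the GC content of the genes. Over 14665 genes, Spearman's rho between deviation and GC content was −0.26 in replicate 3, 0.27 in replicate 1 and 0.25 in replicate 2. Over the 29 PP1 genes it was −0.47, 0.39 and 0.42. WT libraries showed such trends too. In WT replicates 1 to 4 rho was 0.28, −0.04, −0.11 and −0.15 over all genes. Over the PP1 genes it was 0.57, −0.09, 0.07 and −0.33 in these WT libraries. With transcript length, rho was −0.20, −0.27 and 0.01 over all genes in WDR6-WKO replicates 1 to 3. Over the PP1 genes it was −0.58, −0.35 and 0.08. In WT it lay between −0.13 and 0.11 over all genes and between −0.16 and 0.17 over the PP1 genes. These correlations are across genes of 1 library, which are not independent replicates. Because replicate 3 stood apart, results are given for all 7 libraries, and beside them without replicate 3 or after removal of a GC trend from each library. No length trend was removed. Hepatocyte markers were abundant, with *Alb* at 7366 CPM in WT. Markers of Kupffer cells and macrophages summed to between 428 and 486 CPM in WT libraries and to between 506 and 567 CPM in WDR6-WKO libraries. Those of cholangiocytes summed to 3068 to 3360 CPM and to 3714 to 4306 CPM, mostly *Spp1*. For the hepatocyte list the ranges were 13417 to 16008 CPM and 12416 to 14343 CPM. The part of these markers in the results below was not tested.

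Most PP1 genes did not differ detectably between the genotypes, and *Ppp1r8*, which encodes the nuclear inhibitor NIPP1, was the 1 gene that rose. With edgeR's quasi-likelihood test and a Benjamini-Hochberg adjusted p under 0.05, 1 of the 29 genes was called, against 12.8% of all 14779 genes tested. In the direction higher, 6.65% of all genes were called, and in the direction lower 6.18%, with none of the PP1 genes among the latter. The median log2 fold change (WDR6-WKO against WT) was −0.00057 over the PP1 genes and 0.0051 over all genes. Of the 29 genes, 14 had a fold change above 0 and 15 below. The 95% interval of the log2 fold change lay within ±0.5 for 22 of the 29 genes and within ±0.25 for 13. In a bulk sample, a difference in RNA per cell and a difference in the share of cells of a type cannot be told apart.

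**Figure D1:**
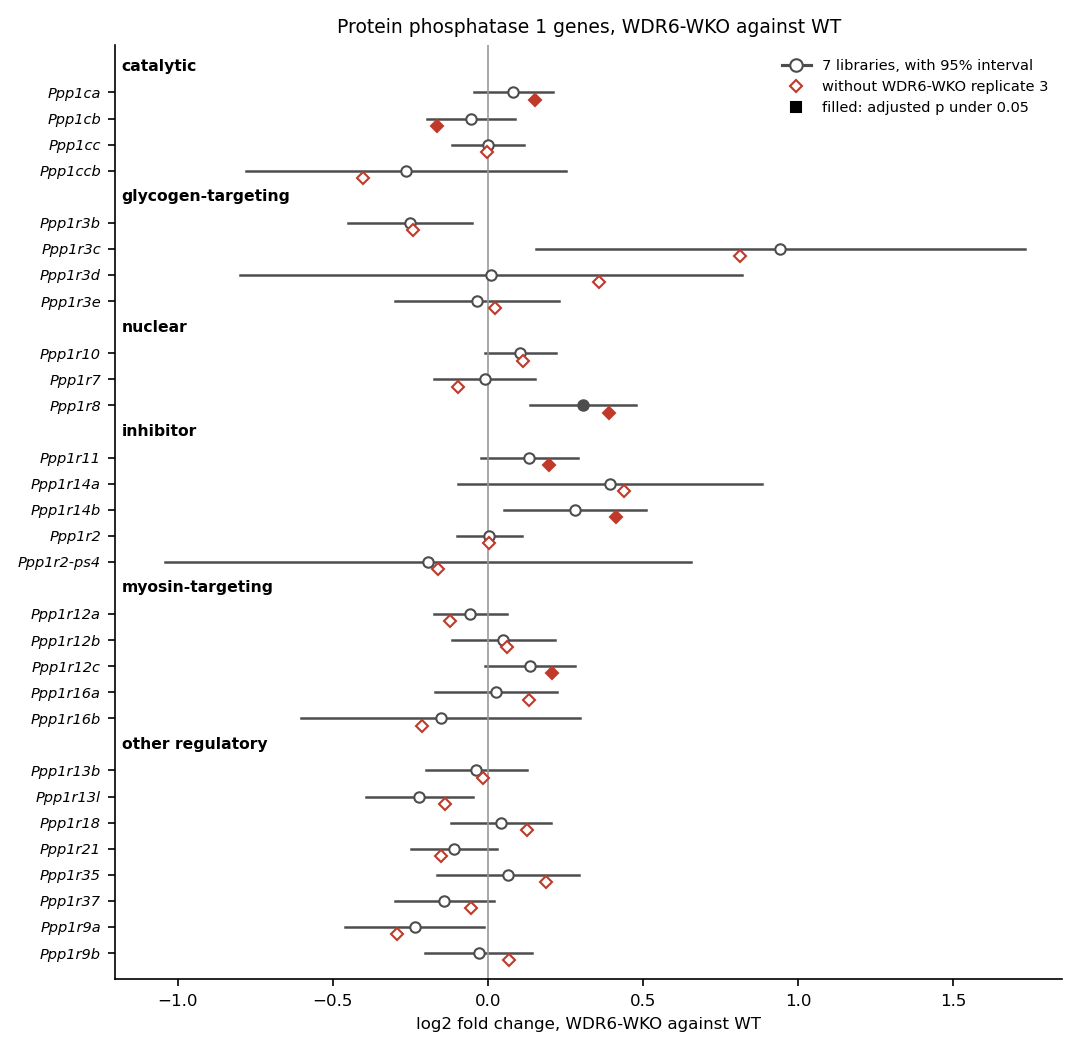
Log2 fold change of each PP1 gene, WDR6-WKO against WT, by role: circles and lines give the value and 95% interval from 7 libraries, diamonds the value without WDR6-WKO replicate 3, and filled symbols an adjusted p under 0.05. *Ppp1r8* is filled in both, and 5 other genes are filled only as diamonds.

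Without WDR6-WKO replicate 3, the number of PP1 genes called rose from 1 to 6, while the share called over all genes rose to 28.6%. The 6 were *Ppp1ca*, *Ppp1r8*, *Ppp1r11*, *Ppp1r12c* and *Ppp1r14b*, which were higher, and *Ppp1cb*, which was lower. After the GC trend was removed from all 7 libraries, 4 PP1 genes were called against 18.7% of all genes. These were *Ppp1r8* and *Ppp1r14b*, which were higher, and *Ppp1r13l* and *Ppp1r37*, which were lower. With both changes together 5 PP1 genes were called against 27.3% of all genes, the same 4 and *Ppp1r21*, which was lower. *Ppp1r8* was thus called in each of these 4 fits, but lost the call in 5 fits that left out a library other than replicate 3. Replicate 3 lay on the other side of the WT mean from both other WDR6-WKO libraries in 13 of the 29 genes, and in 28.2% of all genes. All 3 WDR6-WKO libraries lay on the same side of the WT mean in 11 of the 29.

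**Figure D2:**
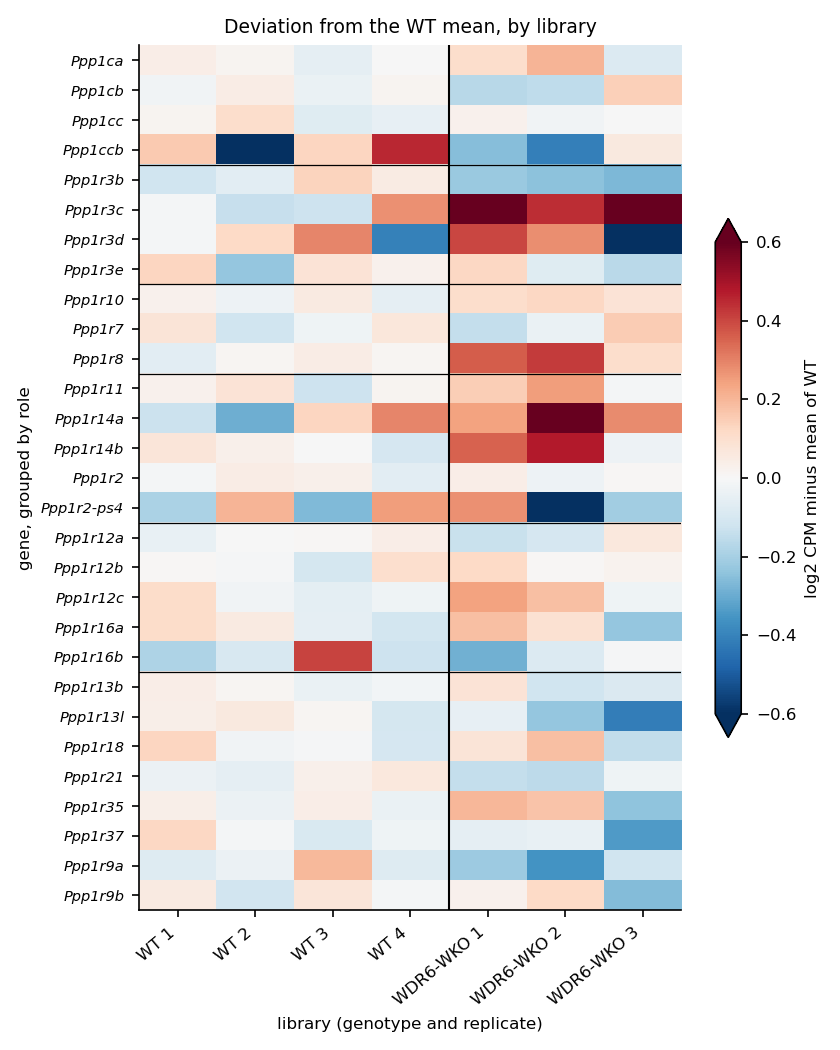
Log2 CPM of each PP1 gene minus its mean over WT, for the 7 libraries in columns and the 29 genes in rows, grouped by role, with colours saturated beyond ±0.6. WDR6-WKO replicate 3 differs in sign from replicates 1 and 2 in 13 of the 29 genes, *Ppp1ca* and *Ppp1cb* among them.

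The catalytic genes showed no difference between the genotypes that exceeded the spread between libraries. *Ppp1cb*, the beta catalytic subunit (chr5:32458843-32517433, plus strand), was counted at 215, 226, 212 and 221 CPM in the WT libraries and at 194, 197 and 241 CPM in WDR6-WKO. Replicates 1 and 2 of WDR6-WKO were below every WT library and replicate 3 above every one. With all libraries, the log2 fold change was −0.05 (s.e. 0.07, 95% interval −0.20 to 0.09, edgeR adjusted p = 0.648), a change of −3.68% with an interval of −12.7% to 6.31%. Without replicate 3 it was −0.16 (adjusted p = 0.0033), and with the GC trend removed as well it was −0.07 (adjusted p = 0.163). The largest annotated overlap with another gene is 1908 exonic bases with Gm43312 on the same strand, and reads there may be counted on either.

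*Ppp1ca*, the alpha subunit (chr19:4192065-4195420, plus strand), showed the mirror image. Its WT libraries stood at 232, 229, 218 and 225 CPM, and those of WDR6-WKO at 243, 261 and 214 CPM. Here replicates 1 and 2 were above every WT library and replicate 3 below every one. With all libraries it differed by 0.08 on the log2 scale (s.e. 0.06, 95% interval −0.05 to 0.21, edgeR adjusted p = 0.403), or 5.83% with an interval of −3.09% to 15.6%. Without replicate 3 it was 0.15 (adjusted p = 0.0057), and with the GC trend removed as well 0.07 (adjusted p = 0.225). The longest transcript of *Ppp1cb* has 5962 bases and a GC content of 40.8%, and that of *Ppp1ca* 1473 bases and 56.1%. The part of GC content and of length in this pattern was not tested. *Ppp1ca* shares 225 exonic bases with *Rad9a* on the opposite strand. Since the strand setting of the counts is not given in the sources used here, reads of the 2 genes cannot be told apart there.

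*Ppp1cc*, the gamma subunit (chr5:122158278-122175273, plus strand), had nearly the same mean in both genotypes. Its WT libraries stood at 105, 112, 98.8 and 100.3 CPM, and those of WDR6-WKO at 106, 102 and 104 CPM, inside the WT range. The log2 fold change was −0.00057 (s.e. 0.05, 95% interval −0.12 to 0.12, edgeR adjusted p = 0.997). *Ppp1ccb* is annotated as a transcribed processed pseudogene, and 97.6% of its 50-base sequences occur in transcripts of other genes, mainly *Ppp1cc*. Its counts, 4.92 to 11.3 CPM in WT and 6.19 to 8.60 CPM in WDR6-WKO, amounted to between 4.40% and 11.3% of those of *Ppp1cc* and are uncertain for that reason. In turn, 54.4% of the 50-base sequences of *Ppp1cc* occur in transcripts of other genes, mainly *Ppp1ccb*, so reads of *Ppp1cc* may be split between them too. The log2 fold change of *Ppp1ccb* was −0.26 (s.e. 0.23, edgeR adjusted p = 0.51).

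Tested as single values with the two-sided exact permutation test, over 35 assignments of the genotypes to libraries, none of the 3 protein-coding catalytic genes differed. The smallest p this design allows is 0.0286. The p was 0.371 for *Ppp1ca* (BH 0.571), 0.457 for *Ppp1cb* (BH 0.571) and 1 for *Ppp1cc* (BH 1), over a family of 5 tests. The family also held the summed level of the 3 genes per length and the ratio of *Ppp1ca* to *Ppp1cb* counts. The summed level, in counts per kilobase of the longest transcript scaled to a common total, was 536 ± 22.5 in WT and 574 ± 23.8 in WDR6-WKO (exact p = 0.171, BH 0.571). *Ppp1ca* made up 66.2 ± 0.685% of it in WT and 67.7 ± 3.44% in WDR6-WKO. *Ppp1cc* made up 18.0 ± 0.604% and 17.5 ± 0.9998%, and *Ppp1cb* 15.8 ± 0.366% and 14.8 ± 2.57%. The make-up of the pool thus had nearly the same mean in both genotypes, with a wider spread in WDR6-WKO for *Ppp1ca* and *Ppp1cb*. The ratio of *Ppp1ca* to *Ppp1cb* counts ranged from 1.01 to 1.08 in WT and was 1.25, 1.33 and 0.886 in WDR6-WKO replicates 1 to 3 (exact p = 0.343, BH 0.571).

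**Figure D3:**
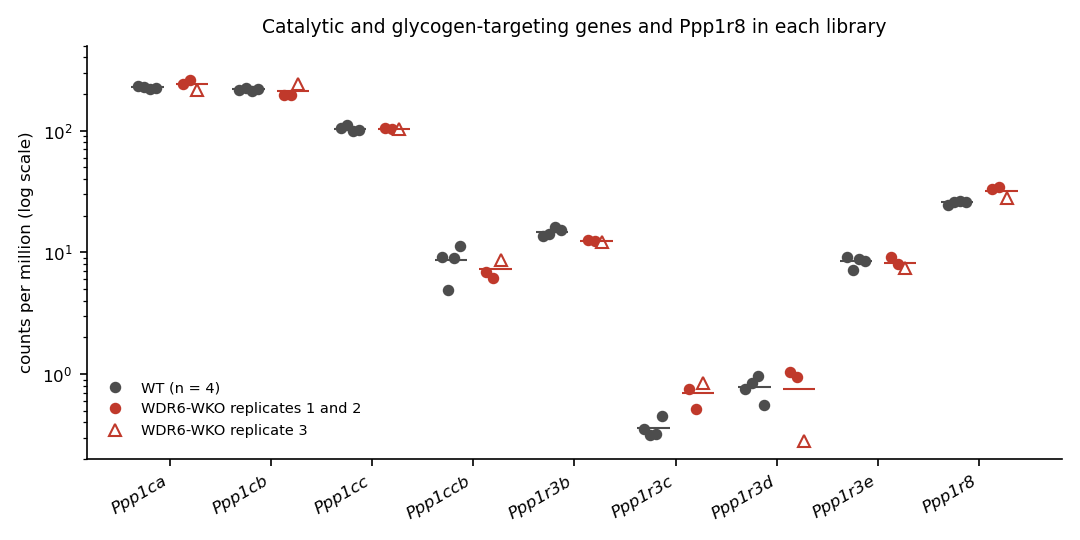
CPM on a log scale of the catalytic genes, the glycogen-targeting genes and *Ppp1r8* in each library, with a horizontal line at each group mean. WDR6-WKO replicate 3, drawn as an open triangle, falls on the opposite side of WT from replicates 1 and 2 for *Ppp1ca* and *Ppp1cb*, and the *Ppp1r3b*, *Ppp1r3c* and *Ppp1r8* ranges of the genotypes do not overlap.

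None of the 4 glycogen-targeting genes was called in all 7 libraries, without replicate 3 or with the GC trend removed. *Ppp1r3b* encodes G-L, the main subunit that brings PP1 to glycogen in liver. It was counted at 13.5, 14.1, 16.2 and 15.2 CPM in WT and at 12.6, 12.4 and 12.2 CPM in WDR6-WKO. Every WDR6-WKO library was below every WT library. The log2 fold change of −0.25 (s.e. 0.09, 95% interval −0.45 to −0.05) did not pass the adjustment (edgeR adjusted p = 0.093), and the adjusted p was 0.082 without replicate 3 and 0.058 with the GC trend removed. Ranges that do not overlap were found in 23.5% of all genes tested and in 5 of the 29 PP1 genes, *Ppp1r3b*, *Ppp1r3c*, *Ppp1r8*, *Ppp1r9a* and *Ppp1r10*.

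*Ppp1r3c*, which encodes the glycogen-targeting subunit PTG, was near the lower end of the table. Its counts were 7, 6, 6 and 9 reads in WT and 18, 11 and 15 in WDR6-WKO, or 0.314 to 0.452 CPM against 0.520 to 0.838 CPM. Every WDR6-WKO library was above every WT library, but on few reads. This gave a log2 fold change of 0.94 (s.e. 0.37, 95% interval 0.15 to 1.73, edgeR adjusted p = 0.109). The thresholds of the study's methods (absolute log2 fold change of at least 0.35, unadjusted P under 0.05) were also applied to the edgeR fit. By them *Ppp1r3c* was the 1 PP1 gene called, against 10.4% of all genes. The study itself used DESeq2, in which the log2 fold change of *Ppp1r3c* was 0.95 with a larger s.e. of 0.52. *Ppp1r3d* was counted at 11 to 18 reads in WT and at 25, 20 and 5 reads in WDR6-WKO, so its interval, −0.80 to 0.82 around 0.010, is wide. *Ppp1r3e* stood at 7.12 to 9.18 CPM in WT and at 7.48 to 9.14 CPM in WDR6-WKO (log2 fold change −0.03, interval −0.30 to 0.23).

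USF1 binds the E-box CACGTG. Of the 29 genes, 24 matched RefSeq promoters (GRCm38.p6), as 32 windows of 250 bases before to 50 after a start, and *Ppp1ca*, *Ppp1r3b*, *Ppp1r3e*, *Ppp1r16a* and *Ppp1r2-ps4* had no entry. The E-box, searched on both strands, occurred in 3 of the 32 windows, those of *Ppp1r3c*, *Ppp1r3d* and *Ppp1r9a*, and in 7.15% of all 32851 windows. The window of *Ppp1r3c* is shown as 1 example of the 3. In it the E-box begins 104 bases before the start and is given in capitals together with 2 CCAAT boxes, the first on the opposite strand, at 124 bases before and 35 after the start.
*Ppp1r3c* promoter, chr19:36736555-36736854, minus strand: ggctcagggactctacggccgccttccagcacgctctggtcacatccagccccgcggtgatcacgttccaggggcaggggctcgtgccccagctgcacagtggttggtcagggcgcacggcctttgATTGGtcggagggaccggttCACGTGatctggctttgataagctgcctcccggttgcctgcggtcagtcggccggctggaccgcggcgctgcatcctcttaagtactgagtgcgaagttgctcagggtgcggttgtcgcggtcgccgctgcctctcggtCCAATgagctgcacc
CCAAT or its complement occurred in 37.4% of all windows and in 7 of the 32. These matches describe letters, and binding was not measured.

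Genes of glycogen metabolism were described beside the targeting subunits. Of 25 listed genes, 24 were tested, and 1 rose and 3 fell, against 12.8% of all genes called in either direction. *Stbd1*, a glycogen-binding protein that tethers glycogen to membranes, rose in WDR6-WKO, with 55.5 ± 5.09 CPM (n = 3) against 35.03 ± 1.44 CPM (n = 4), a log2 fold change of 0.66 (s.e. 0.07, edgeR adjusted p = 1.2e-05). *Pygl*, liver glycogen phosphorylase and a substrate of PP1, fell by 0.26 on the log2 scale, from 171 ± 4.41 to 143 ± 2.90 CPM (adjusted p = 0.0018). *Ugp2*, which makes UDP-glucose, fell by 0.22, from 155 ± 2.62 to 133 ± 12.8 CPM (adjusted p = 0.025), and missed the threshold when WT replicate 2, 3 or 4 or WDR6-WKO replicate 1 or 2 was left out. The ranges of these 3 genes did not overlap between the genotypes. The median log2 fold change of the list was −0.05, and 8 of its 24 genes were called without WDR6-WKO replicate 3, against 28.6% of all genes in that fit. *Gys2*, liver glycogen synthase, was near the lower end of the table, at 0.820 ± 0.245 CPM in WT and 0.734 ± 0.110 CPM in WDR6-WKO, and *Gys1* stood at 15.3 ± 0.453 and 13.7 ± 1.75 CPM.

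Among the nuclear regulatory subunits, *Ppp1r8* rose (chr4:132826929-132843169, minus strand). NIPP1, its product, holds PP1 in the nucleus and takes part in RNA splicing and transcriptional control. It was counted at 24.7, 26.0, 26.6 and 26.0 CPM in WT and at 33.2, 34.5 and 27.8 CPM in WDR6-WKO. All WDR6-WKO libraries were above all WT libraries, replicate 3 by the smallest margin. Its log2 fold change was 0.31 (s.e. 0.08, 95% interval 0.13 to 0.48, edgeR adjusted p = 0.021), or 23.67% with an interval of 9.76% to 39.4%. It was 0.28 with the GC trend removed and 0.39 without replicate 3. The call was lost when WT replicate 1, 2 or 4 or WDR6-WKO replicate 1 or 2 was left out. The adjusted p ranged from 0.056 to 0.124 in those fits. None of the 50-base sequences of *Ppp1r8* occurs in transcripts of another gene.

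The other nuclear subunits moved less. *Ppp1r10* encodes PNUTS, which targets PP1 to chromatin and RNA polymerase II. It stood at 63.4 to 68.1 CPM in WT and at 69.4 to 71.7 CPM in WDR6-WKO, so that its ranges did not overlap, with a log2 fold change of 0.10 (95% interval −0.01 to 0.22, edgeR adjusted p = 0.223). *Ppp1r7*, which encodes SDS22, stood at 40.7 to 46.7 and 40.1 to 49.3 CPM (log2 fold change −0.01, interval −0.17 to 0.15). It shares 225 exonic bases with *Pask* on the opposite strand.

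Of the inhibitor genes, *Ppp1r14b* had the largest fold change among members above 10 CPM after *Ppp1r8*. It encodes PHI-1, a phosphorylation-dependent inhibitor of myosin phosphatase. It was counted at 182, 176, 173 and 161 CPM in WT and at 221, 241 and 169 CPM in WDR6-WKO. Replicates 1 and 2 were above all WT libraries and replicate 3 was inside their range. In all libraries it was 0.28 higher on the log2 scale (s.e. 0.10, 95% interval 0.05 to 0.51, edgeR adjusted p = 0.107). It was 0.41 without replicate 3 (adjusted p = 7.6e-08), 0.18 with the GC trend removed (adjusted p = 0.0057) and 0.20 with both (adjusted p = 0.00044). Its GC content, 65.8%, is the highest among the PP1 genes, and 37.6% of its 50-base sequences occur in transcripts of other genes, mainly Gm7332, so that reads may be split between them.

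*Ppp1r2*, inhibitor-2, had a narrow interval around no difference, with 132 ± 4.41 CPM in WT and 132 ± 3.18 CPM in WDR6-WKO (log2 fold change 0.0052, interval −0.10 to 0.11). *Ppp1r11*, inhibitor-3, stood at 41.3 ± 2.44 and 45.3 ± 4.12 CPM. Its log2 fold change was 0.13 (edgeR adjusted p = 0.25), 0.20 without replicate 3 (adjusted p = 0.019) and 0.15 with the GC trend removed as well (adjusted p = 0.076). *Ppp1r14a*, which encodes the smooth muscle inhibitor CPI-17, was low, at 1.52 ± 0.292 and 1.998 ± 0.317 CPM, with a wide interval of −0.10 to 0.88. *Ppp1r2-ps4* is annotated as a processed pseudogene, had 6 to 16 reads in each library and shares 77.9% of its 50-base sequences with other genes, mainly *Ppp1r2-ps2*, so its counts are uncertain.

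None of the 5 myosin-targeting genes was called. These subunits bring PP1, mainly the beta form, to myosin light chain and to membranes. *Ppp1r12a*, which encodes MYPT1, stood at 124 ± 3.02 CPM in WT and 119 ± 8.89 CPM in WDR6-WKO (log2 fold change −0.06, interval −0.17 to 0.06). *Ppp1r12c* stood at 75.2, 68.7, 66.9 and 68.6 CPM in WT and at 82.5, 79.1 and 68.5 CPM in WDR6-WKO. As for *Ppp1r14b*, replicates 1 and 2 were above all WT libraries and replicate 3 was not. Its log2 fold change was 0.14 (edgeR adjusted p = 0.206), 0.21 without replicate 3 (adjusted p = 0.0049) and 0.04 with the GC trend removed as well (adjusted p = 0.651). *Ppp1r12b*, *Ppp1r16a* and *Ppp1r16b* had log2 fold changes of 0.05, 0.03 and −0.15 with intervals that included 0. *Ppp1r12b* shares 710 exonic bases with an antisense gene.

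The pathway around myosin phosphatase, 16 listed kinases, GTPases and myosins, all tested, held no gene called by edgeR, against 12.8% of all genes. Their median log2 fold change was −0.13, with 11 of the 16 below 0, while the median over all genes was 0.0051. With the GC trend removed, a fit added after the data were seen, 4 of the 15 tested fell, *Dapk3*, *Mylk*, *Rhob* and *Rock2*. In that fit 18.7% of all genes were called in either direction. In all 7 libraries these had edgeR adjusted p-values of 0.090, 0.093, 0.064 and 0.077. Of 7 markers of stellate cells and smooth muscle, 4 had a log2 fold change above 0 and 3 below, with a median of 0.06. *Acta2* was the 1 called, against 12.8% of all genes. It rose from 62.2 ± 4.28 to 78.4 ± 3.62 CPM (log2 fold change 0.33, edgeR adjusted p = 0.0025). The 7 markers summed to 128 to 153 CPM in WT libraries and to 150 to 163 CPM in those of WDR6-WKO, and these ranges overlapped. The part of these cells in the myosin genes was not tested.

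None of the 8 remaining regulatory genes was called in all 7 libraries, and 6 had a log2 fold change below 0. *Ppp1r13l* encodes iASPP, an inhibitor of p53-dependent apoptosis. It was counted at 41.8, 42.5, 41.2 and 37.9 CPM in WT and at 39.5, 34.7 and 30.6 CPM in WDR6-WKO. Replicate 1 was inside the WT range and the others below it. The log2 fold change was −0.22 (s.e. 0.08, 95% interval −0.39 to −0.05, edgeR adjusted p = 0.086). Without replicate 3 it was −0.14 (adjusted p = 0.128). With the GC trend removed it was −0.30 (adjusted p = 0.0019), and −0.31 without replicate 3 as well (adjusted p = 0.00056).

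*Ppp1r37* had a similar dependence. It stood at 80.4, 73.2, 69.1 and 72.4 CPM in WT and at 71.0, 71.4 and 58.2 CPM in WDR6-WKO, where replicate 3 was below all other libraries. Its log2 fold change was −0.14 (edgeR adjusted p = 0.24), −0.05 without replicate 3 (adjusted p = 0.529), −0.19 with the GC trend removed (adjusted p = 0.0096) and −0.18 with both (adjusted p = 0.0094). *Ppp1r9a*, which encodes the actin-binding scaffold neurabin, stood between 12.3 and 14.9 CPM in WT and between 10.1 and 11.95 CPM in WDR6-WKO. These ranges did not overlap, and the log2 fold change was −0.24 (interval −0.46 to −0.01, edgeR adjusted p = 0.157). *Ppp1r9b*, the related scaffold spinophilin, stood at 56.3 ± 3.23 and 55.1 ± 7.28 CPM, a log2 fold change of −0.03. The others were *Ppp1r13b* (ASPP1), *Ppp1r18* (phostensin, which binds actin), *Ppp1r21* and *Ppp1r35*, with log2 fold changes from −0.11 to 0.06 and intervals that included 0.

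Levels can be compared between genes only per length, and were computed as counts per kilobase of the longest annotated transcript, scaled to a common total. In WT, *Ppp1r14b* was highest, at 400.2 ± 9.91, and *Ppp1ca* next, at 355 ± 13.3. *Ppp1cc* (96.5 ± 6.06), *Ppp1cb* (84.9 ± 4.74) and *Ppp1r2* (74.7 ± 2.84) followed, and the WT ranges of these 5 did not overlap from one to the next. *Ppp1cb*, which was counted nearly as often as *Ppp1ca* in CPM, was thus well below it per length, since its longest transcript has 5962 bases against 1473. *Ppp1r11* (59.7 ± 4.33), *Ppp1r12a* (56.4 ± 3.31) and *Ppp1r12c* (54.1 ± 1.96) came next, and each overlapped its neighbour in this trio. The glycogen-targeting genes were in the lower part of the order, from *Ppp1r3e* at 9.95 ± 0.969 and *Ppp1r3b* at 7.78 ± 0.774 to *Ppp1r3d* at 0.548 ± 0.114 and *Ppp1r3c* at 0.306 ± 0.0633, the lowest of all. Of the 29 genes, 17 were above the median of all genes, and *Ppp1ca* was at percentile 97.7. In 11 of the 28 pairs of neighbours the WT ranges overlapped. The order depended in part on the length chosen. With the union of exons as length, *Ppp1cb* had rank 6, after *Ppp1r2* at rank 4 and *Ppp1r11* at rank 5.

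**Figure D4:**
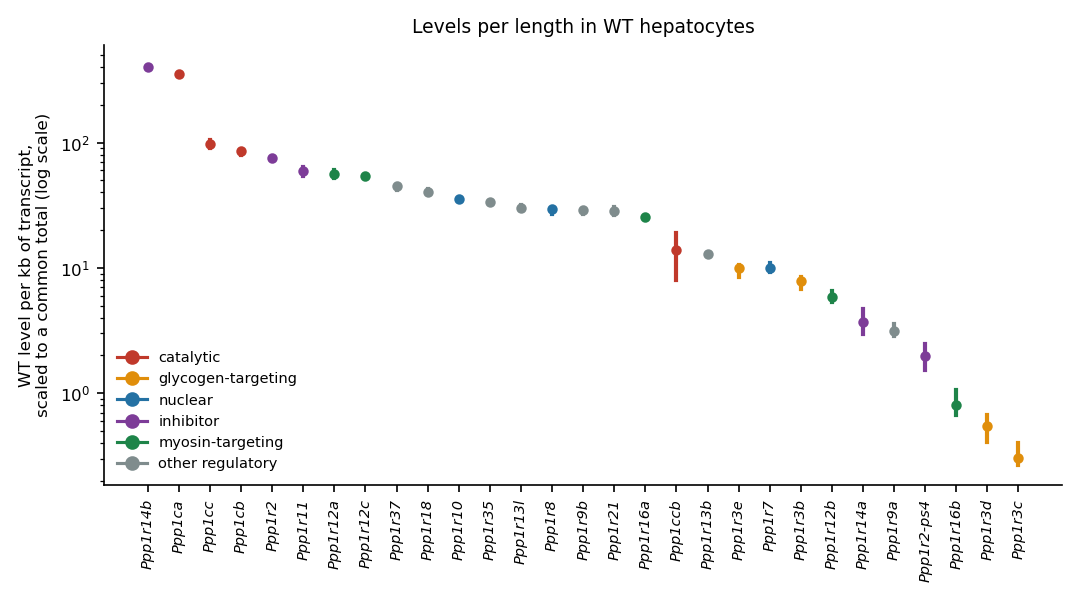
WT level of each PP1 gene per kilobase of its longest transcript, scaled to a common total, on a log scale, in descending order: points are means of 4 libraries, vertical lines their range, and colours the role. *Ppp1r14b* and *Ppp1ca* stand above 339 in every WT library, and *Ppp1r3c* is lowest at a mean of 0.306.

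Genes of known PP1 partners whose symbols do not begin with *Ppp1* were also listed. Of 28, 26 were tested, none rose and 2 fell, against 12.8% of all genes called in either direction. *Phactr2*, a PP1- and actin-binding protein, fell by 0.37 on the log2 scale, from 36.8 ± 2.57 to 28.4 ± 1.19 CPM (edgeR adjusted p = 0.0031). *Mki67*, which recruits PP1 to mitotic chromosomes and marks cycling cells, fell by 0.25, from 344 ± 10.3 to 289 ± 34.2 CPM (adjusted p = 0.018), and did not pass the threshold without WT replicate 2, 3 or 4 or without WDR6-WKO replicate 1 or 2. Without WDR6-WKO replicate 3, 9 of the 26 were called, against 28.6% of all genes in that fit. Of 30 genes of the other phosphoprotein phosphatases (*Ppp2* to *Ppp6*), none rose and 2 fell, against the same 12.8%. These were *Ppp2r5e* (log2 fold change −0.20, adjusted p = 0.049) and *Ppp6r1* (−0.18, adjusted p = 0.048), both regulatory subunits and both close to the threshold. Without WDR6-WKO replicate 3, 8 of the 30 were called, again against 28.6% of all genes. Their median log2 fold change was −0.05.

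The genes that connect PP1 with lipogenesis in the study's question were not called at the RNA level in all 7 libraries, *Wdr6* excepted. *Fasn*, fatty acid synthase, was counted at 368, 370.4, 368 and 366 CPM in WT and at 354, 329 and 355 CPM in WDR6-WKO. These ranges did not overlap, and the log2 fold change was −0.09 (s.e. 0.04, edgeR adjusted p = 0.211), or −0.11 without replicate 3 (adjusted p = 0.037). With the GC trend removed it was −0.12 (adjusted p = 0.162), and −0.22 without replicate 3 as well (adjusted p = 8.1e-05). *Usf1* stood at 20.3 ± 1.69 and 22.3 ± 3.36 CPM (log2 fold change 0.14, adjusted p = 0.412), and was 0.25 higher on the log2 scale without replicate 3 (adjusted p = 0.024), or 0.16 with the GC trend removed as well (adjusted p = 0.151). *Usf2*, its partner, had a log2 fold change of 0.02 (adjusted p = 0.88), and *Prkdc*, the catalytic subunit of DNA-PK, one of −0.05 (adjusted p = 0.75).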

How the data were processed

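RNA of WT (n = 4) and WDR6-WKO (n = 3) primary mouse hepatocytes was sequenced on an Illumina HiSeq platform from NEBNext Ultra libraries. The authors aligned the reads to mm10 with Bowtie2 2.2.3 (submitters' processing notes) and deposited unnormalized counts per gene symbol. The counting tool, annotation and strand setting are not given in the sources used here, and the smallest row total was 50. Libraries were labelled as independent experiments.

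Counts were scaled by TMM and tested with edgeR 4.0.16 (R 4.3.3, default expression filter, robust quasi-likelihood test, no replicate block), with Benjamini-Hochberg adjustment over 14779 genes and a threshold of 0.05. Standard errors were derived from the fold change and the F statistic. Alternatives were DESeq2 1.42.0, limma-voom 3.58.1, a replicate block and each library left out in turn. Others were median-of-ratios factors or library sizes alone for scaling, and a filter of at least 10 counts per library or none. The study's thresholds were also applied, to the edgeR fit rather than to DESeq2. After seeing the data, fits were added in which a lowess curve of log2 deviation on GC content (span 0.3) was subtracted from each library, over the 14665 genes with a GC content and length. Models, lengths and GC content came from GENCODE on GRCm38, matched by symbol, and shared sequence was the percent of a gene's 50-base sequences found in transcripts of other genes. Fits were tested on simulated data.

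Named genes were the catalytic and *Ppp1r3* genes, members with an adjusted p under 0.05 or with separate CPM ranges, the 5 other members with the highest level per length and the lowest, up to 8 called genes of the glycogen, partner and myosin lists, and *Wdr6*, *Fasn*, *Usf1*, *Usf2* and *Prkdc*. Genes called in an alternative only, the called genes of the other phosphatases, *Acta2*, *Gys1* and *Gys2* were named after their values were seen. Among the called genes of the lists, 1 is not reported here. The members and lists were chosen with earlier results of these data known. Marker lists, with genes called of genes tested, were hepatocytes 3 of 7 (all lower), Kupffer cells and macrophages 0 of 7, stellate cells and smooth muscle 1 of 7, sinusoidal endothelium 0 of 7, cholangiocytes 2 of 5 (both higher) and lymphocytes 0 of 1, since *Cd3e*, *Cd79a*, *Cd4*, *Cd8a* and *Ms4a1* were not among the rows used here. Over all genes tested, 12.8% were called, 6.65% higher and 6.18% lower.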

Additional observations from a re-analysis of the deposited data

Results flagged for a closer look

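Of 41 genes examined for a WT library far from the other 3, by the gap to its nearest neighbour over the whole range (Dixon's test at the 95% level), 3 had one, and chance gives about 1 in 20 groups. *Ppp1r16b* stood at 3.08 CPM in WT replicate 3 against 2.02 to 2.15 CPM in the others. *Ppp1r9a* stood at 14.9 CPM in WT replicate 3 against 12.3 to 12.7 CPM. *Pygl* stood at 178 CPM in WT replicate 4 against 168 to 169 CPM. Groups of 3, such as WDR6-WKO, were not examined in this way.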

How the results depend on the processing

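Over 457 pairs of a PP1 gene and an alternative, 437 kept their side of the threshold, 15 became called and 5 lost the call, the last all for *Ppp1r8* with 1 library left out. Among the 426 pairs called in neither fit, 38 had the other sign. With 1 library left out, genes called ranged from 1032 to 4233 in all (1897 with 7 libraries), from 0 to 5 among PP1 genes higher, from 0 to 1 lower, from 3 to 8 for glycogen metabolism, from 1 to 9 for the partners, from 0 to 5 for the myosin phosphatase pathway and from 0 to 8 for the other phosphatases. The highest value of each range came without WDR6-WKO replicate 3 (for PP1 genes lower, also without WDR6-WKO replicate 1), and the lowest in all came without WDR6-WKO replicate 2. The fold change of *Ppp1ca* ranged from 0.016 to 0.15 and that of *Ppp1cb* from −0.16 to −0.0027 in these fits, both called only without WDR6-WKO replicate 3. With the GC trend removed, 2 PP1 genes were higher and 2 lower, and 4 myosin pathway genes were called. With the GC trend removed and without WDR6-WKO replicate 3, 4004 genes were called in all, 2 PP1 genes higher and 3 lower, 8 partners, 5 myosin pathway genes and 9 other phosphatases. DESeq2 called 2 PP1 genes higher (*Ppp1r14b* in addition) and 1 myosin pathway gene. By the study's thresholds applied to the edgeR fit, 1 *Ppp1r3* gene, 1 partner and 0 other phosphatases were called. For the other phosphatases, 1 gene was called with at least 10 counts in every library and 0 with library sizes alone. That scaling called 1212 genes higher and 696 lower, against 983 and 914, and moved the median of all genes to 0.03, with 1 PP1 gene called. The union of exons as length gave *Ppp1ca* 64.0% of the catalytic level. Deviations of same-numbered samples from their group means correlated at 0.04, 0.02 and 0.04 for numbers 1 to 3. WDR6-WKO replicates 1 and 2 both correlated best with WT replicate 1 (0.04 and 0.12), and replicate 3 with WT replicate 4 (0.08). These values cannot tell whether same-numbered samples were paired. The replicate block called 1762 genes in all, 1 PP1 gene lower (*Ppp1r13l*), 1 myosin pathway gene and 1 other phosphatase. The causes of these changes were not tested. Genes under 1 CPM, such as *Ppp1r3c*, *Ppp1r3d* and *Ppp1r2-ps4*, had intervals wider than a log2 difference of 1, so that moderate differences were not detectable at this depth.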
